A study of Mus musculus with 2 samples.

Results

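Progression from the G1 phase into DNA replication was followed here through 10 genes in tumor-infiltrating cells: the D cyclins Ccnd1, Ccnd2 and Ccnd3, the E cyclins Ccne1 and Ccne2, and the Cdk inhibitors Cdkn1a, Cdkn1b, Cdkn2a, Cdkn2c and Cdkn2d. The genes were chosen by name, and all 10 of them were found among the 14654 genes of the deposited count table. YUMMER1.7 tumors, grown from a BRAF-mutant and highly mutated mouse melanoma line, were collected on day 11 from male C57BL/6 hosts aged 8 weeks of the Siah2-/- or the wild-type (WT) genotype. The ubiquitin ligase Siah2 was thus missing from the host, whereas the injected line was the same in both groups, and the comparison asks how the G1 machinery of infiltrating cells differed between such hosts. Sorted live CD45+ cells were mixed with a smaller part of CD45- cells, and 1 droplet library was made per genotype by 3′ counting of unique molecular identifiers (UMIs), so genotype, tumors, suspension and library cannot be told apart. With 1 library per genotype no test between genotypes was possible, and every interval below is a 95% interval that covers counting error only.

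D cyclins bind Cdk4 and Cdk6 and carry growth signals into the start of the cell cycle. E cyclins bind Cdk2 and drive entry into S phase. Inhibitors of the Ink4 family (Cdkn2a, Cdkn2c, Cdkn2d) block Cdk4 and Cdk6, whereas those of the Cip/Kip family (Cdkn1a, a target of p53 that also responds to other stress, and Cdkn1b, which encodes p27Kip1 and helps to hold resting lymphocytes out of the cycle) act chiefly on complexes with Cdk2. On the GRCm38 build the genes lie at chr7:144929931-144939925 (Ccnd1), chr6:127125162-127152193 (Ccnd2), chr17:47505051-47599691 (Ccnd3), chr7:38097984-38107534 (Ccne1), chr4:11191351-11204779 (Ccne2), chr17:29090976-29100727 (Cdkn1a), chr6:134920401-134925513 (Cdkn1b), chr4:89274471-89294653 (Cdkn2a), chr4:109660876-109667189 (Cdkn2c) and chr9:21288410-21291407 (Cdkn2d). Cdkn2a encodes both p16Ink4a and p19Arf from transcripts that share their 3′ exons, so 3′ tags do not tell them apart.

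Promoter sequence is shown for members that differed between cycling and resting cells or between the libraries. RefSeq windows on GRCm38.p6, from 250 bases before to 50 bases after a start site, matched 7 of the 10 members by symbol, and Ccnd1, Ccnd2 and Ccne2 had no entry. Printed stretches end before the annotated gene begins and run 5′ to 3′ on the strand of the gene, with the GC box GGGCGG, searched also as its complement CCGCCC, in capitals. The Cdkn2d stretch holds no GC box outside the annotated gene.
Cdkn1b, chr6:134920321-134920400, plus strand: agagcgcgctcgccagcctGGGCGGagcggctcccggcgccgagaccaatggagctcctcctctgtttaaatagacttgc
Ccne1, chr7:38107535-38107614, minus strand: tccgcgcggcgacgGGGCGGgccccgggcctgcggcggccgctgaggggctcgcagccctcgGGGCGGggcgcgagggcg
Cdkn2d, chr9:21291408-21291459, minus strand: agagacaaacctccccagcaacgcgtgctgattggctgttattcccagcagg
At least 1 GC box was found in a 300 base window of each of the 7 matched members, although 1 of the 2 windows of Cdkn1a and of Cdkn2c held none, against 38.2% of the 27025 symbols in the promoter table. E2F motifs were searched as TTTCCCGC, TTTCGCGC, TTTGCCGC and TTTGGCGC on both strands, and were held by Cdkn2a alone among the matched members, against 2.60% of all symbols; the match lies 99 bases before a start site and is in capitals here.
Cdkn2a, chr4:89294700-89294729, minus strand: ctctgggaagcTTTCCCGCgcgactgggga
The forkhead motif GTAAACA, searched because Foxo factors are known to act on Cdkn1b, was absent from the Cdkn1b window and present in 1 of the 2 windows of Ccnd3, against 4.05% of all symbols. These letter matches are descriptions of the windows and not binding sites.

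The analysed cells were the 4512 WT and 5563 Siah2-/- cells of the deposited normalized table, with medians of 11439.5 and 8700 UMIs per cell, and 34 barcodes occurred in both libraries. Marker gates placed 3440 WT and 4038 Siah2-/- cells in 7 classes. WT and Siah2-/- numbers were 77 and 100 Tregs, 18 and 251 CD4 T, 462 and 924 CD8 T, 355 and 528 NK, 1967 and 2115 macrophage, 54 and 75 dendritic (DC) and 507 and 45 CD45-negative cells. The other 1072 and 1525 cells carried markers of more than 1 lineage or too few markers, and 362 WT and 155 Siah2-/- barcodes with leukocyte and CD45-negative markers together were kept apart by a limit that was added after the data had been seen. The Treg gate asked for T cell markers and Foxp3, with no rule on Cd4 or Cd8 genes. Cd8a was found in 33.8% of WT and 27% of Siah2-/- Tregs, so every Treg value includes such cells unless said otherwise. CD45-negative cells held collagen genes and Hmga2, whereas the melanocyte genes Sox10, Mlana, Dct and Pmel were at or near 0, so they are called by their gate, and the labels name CD45+ as the cell type of both samples. Levels are UMIs of a gene summed over the cells of a class and scaled to a class total of 1000000 UMIs (CPM). Siah2 itself had 278 UMIs (12.6 CPM) in WT and 257 UMIs (12.3 CPM) in Siah2-/- macrophages, 43 UMIs (8.40 CPM) and 44 UMIs (4.94 CPM) in CD8 T cells and 104 UMIs (8.42 CPM) and 3 UMIs (3.17 CPM) in CD45-negative cells. Tregs, CD4 T cells, NK cells and DC held 1 to 18 Siah2 UMIs in each library, with the higher CPM in Siah2-/- for Tregs and CD4 T cells and in WT for NK cells and DC. Since the sources do not state which part of the gene was deleted, 3′ tags do not check the genotype.

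The D cyclins differed between the cell classes, and Ccnd1 differed most widely among them. Ccnd1 was a gene of CD45-negative and myeloid cells, at 434 CPM (422 to 445) in WT and 263 CPM (232 to 298) in Siah2-/- CD45-negative cells. DC held 335 and 159.5 CPM and macrophages 203 and 146 CPM. CD8 T and NK cells nearly lacked it, with 3.91 and 4.16 CPM in CD8 T cells and 7.47 and 7.01 CPM in NK cells. Free RNA, estimated from droplets with 10 to 100 UMIs and from macrophage markers in those cells, amounted to 133% and 92.6% of the CD8 T cell level, so these few UMIs are not read as expression. WT Tregs and CD4 T cells held more, 27.3 and 42.7 CPM on 23 and 7 UMIs, of which free RNA amounted to 16.1% and 11.1%, and the Siah2-/- ones held 5.29 and 4.12 CPM. Markers of DC moved with these values. A list of 9 DC markers summed to 579 CPM in WT and 30.0 CPM in Siah2-/- CD4 T cells and, in the same order, to 70.1 and 27.5 CPM in Tregs. In DC the sums were 2274 and 6606 CPM. The list had 7 and 5 of the 9 detected in CD4 T cells and Flt3 among those at 0 in Siah2-/-. At least 2 UMIs of the list were in 2 of the 18 WT CD4 T cells and 8 of the 77 WT Tregs, which held 7 of the 7 and 12 of the 23 Ccnd1 UMIs.

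Ccnd2 was led by Tregs in both libraries, at 518 CPM (471 to 569) and 556 CPM (509.8 to 606), each above the next class beyond counting error. The lowest level was that of CD45-negative cells, 118 and 145 CPM. Between them the order was not the same: macrophages held 344 CPM in WT, above NK and CD8 T cells, and 202 CPM in Siah2-/-, below both. Ccnd3, the D cyclin known for its role in lymphocyte development, lay between 202 and 278 CPM in the WT lymphocyte classes and between 217 and 306 CPM in the Siah2-/- ones. Macrophages were low, with 93.5 and 107 CPM.

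As a share of all D cyclin UMIs of a class, Ccnd1 made up 64.2% in WT and 49.1% in Siah2-/- CD45-negative cells. It made up 31.7% and 32.0% in macrophages, and 0.846% and 0.829% in CD8 T cells. In CD8 T cells Ccnd2 made up 42.3% in WT and 50.7% in Siah2-/-, and Ccnd3 56.8% and 48.4%. In Tregs Ccnd2 made up 62.9% and 68.7%. Shares of different genes rest on 3′ tag counts and carry no correction for how well each 3′ end is captured.

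**Figure D1:**
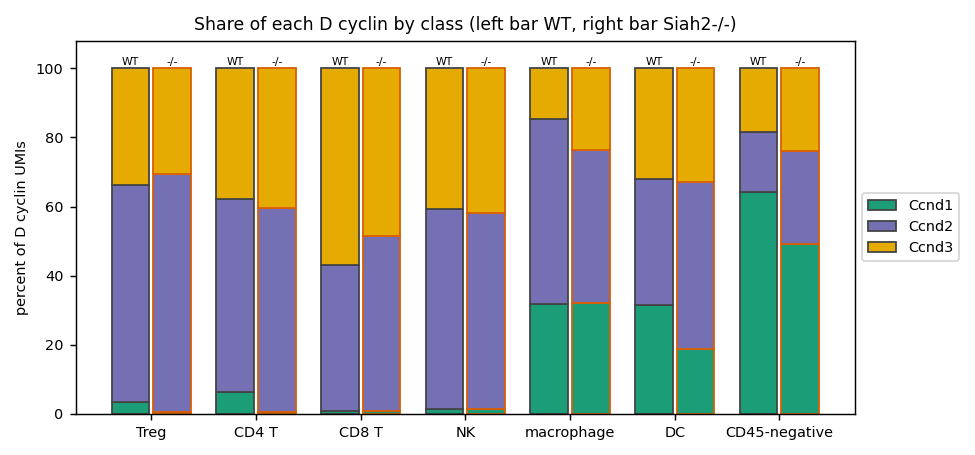
Percent of the D cyclin UMIs of each class (y axis, percent) that came from Ccnd1, Ccnd2 and Ccnd3, with WT as the left and Siah2-/- as the right bar of each class. Ccnd1 takes 64.2% of the WT CD45-negative bar and 0.846% of the WT CD8 T bar.

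E cyclins were found at low levels. Ccne1 was highest in T cells, at 58.2 CPM (51.8 to 65.2) in WT and 32.2 CPM (28.6 to 36.2) in Siah2-/- CD8 T cells, and the intervals of Tregs, at 49.9 and 27.5 CPM, overlapped these. CD4 T cells held 54.9 and 21.2 CPM. NK cells held 19.1 and 12.3 CPM and macrophages 12.8 and 5.46 CPM. Ccne2 stayed under 20 CPM in every class and library, with 10.5 and 7.64 CPM in CD8 T cells.

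Of the Ink4 inhibitors, Cdkn2c marked CD45-negative cells, at 230.5 CPM (222 to 239) in WT and 261 CPM (229.7 to 296) in Siah2-/-, above every leukocyte class. Tregs, the next, held 66.5 and 45.5 CPM, and macrophages 13.5 and 7.53 CPM. Cdkn2d had the opposite pattern: CD8 T cells held 133 and 129 CPM and Tregs 147 and 121 CPM, with no difference between them beyond counting error. CD45-negative cells were lowest for it, at 34.4 and 23.3 CPM. Cdkn2a was scarce, with 166 UMIs (13.4 CPM) in WT CD45-negative cells and 0 UMIs in DC of both libraries, which allows up to 4.68 and 4.27 CPM. The study describes the injected YUMMER1.7 line as Cdkn2a-/-, and the sources used here do not state which part of the gene was deleted. Where the Cdkn2a tags of CD45-negative cells came from was not tested.

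Cdkn1a was foremost a macrophage gene, at 372 CPM (364 to 381) in WT and 666 CPM (655 to 678) in Siah2-/-. CD45-negative cells and DC followed, with 261 and 237 CPM and 201 and 335 CPM. CD4 T cells held 201 and 104 CPM, level with DC in WT. CD8 T cells (20.7 and 48.7 CPM) and NK cells (29.3 and 41.0 CPM) were lowest. Cdkn1b had no leading class in WT: it ran from 17.7 CPM in NK cells to 33.3 CPM in Tregs, and no neighbours in that order, the only pairs compared, differed beyond counting error. In Siah2-/- it ran from 23.3 CPM in CD45-negative cells to 65.6 CPM in Tregs, and Tregs and CD4 T cells stood above CD8 T cells.

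**Figure D2:**
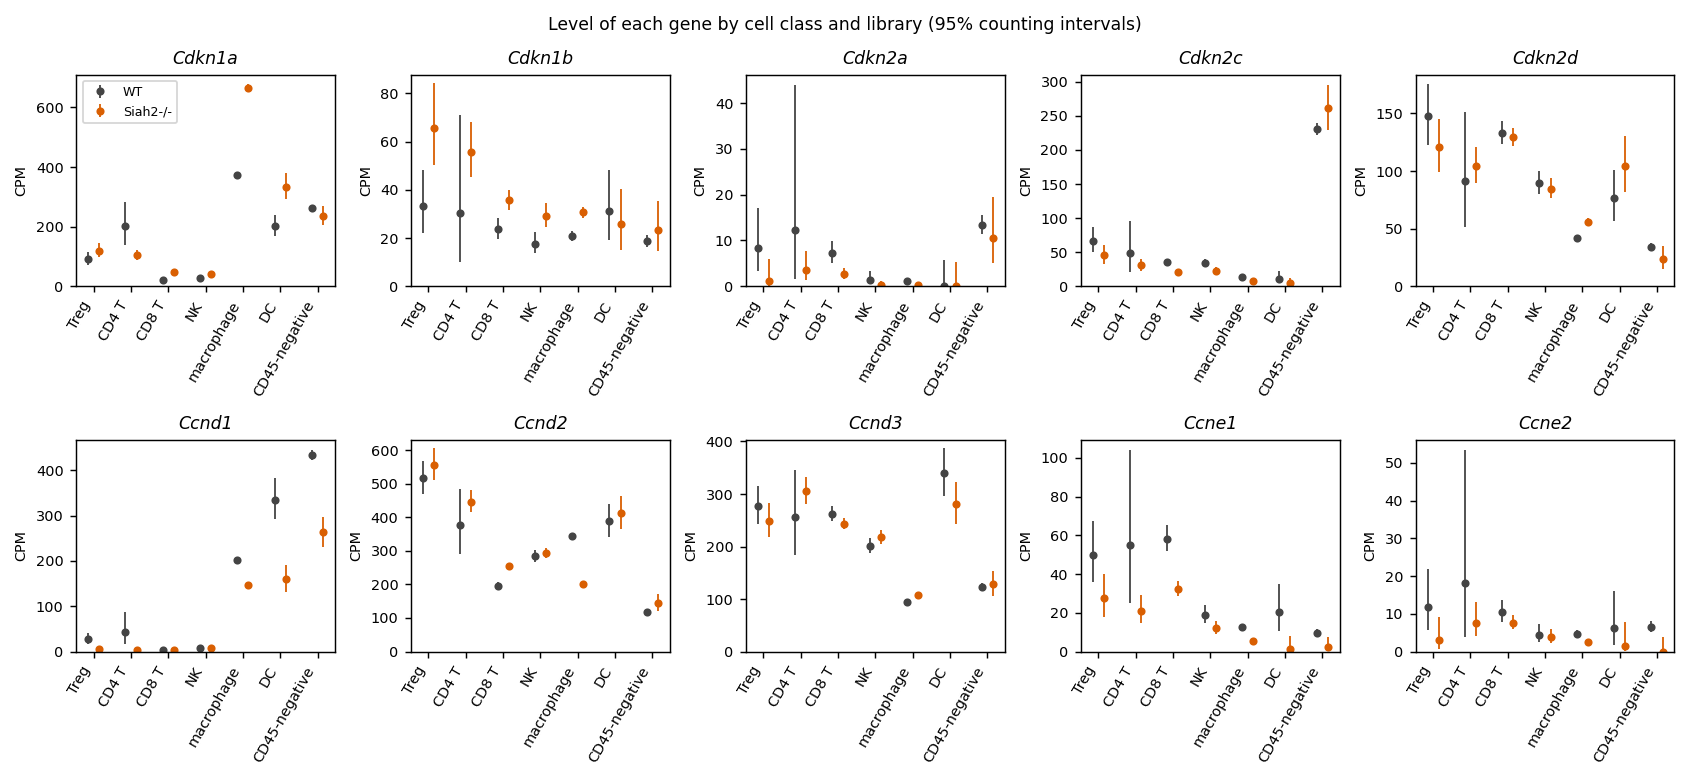
Level of each of the 10 genes (y axis, CPM, starting at 0) in 7 cell classes, WT in grey and Siah2-/- in orange, with 95% Poisson counting intervals. Cdkn1a is highest in macrophages, Cdkn2c and Ccnd1 in CD45-negative cells, and Ccnd2 in Tregs.

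Cells with at least 1 Mki67 UMI, a gene of cycling cells, were then set against cells with none within each library. With every cell thinned to 4000 UMIs, which left out no cell, they made up 21.0% of WT and 9.74% of Siah2-/- CD8 T cells, 32.5% and 11.0% of Tregs and 6.10% and 2.27% of macrophages. Without thinning the CD8 T cell shares were 40.5% and 17.4%, those of Tregs 46.8% and 21.0% and those of macrophages 12.5% and 5.34%, so Mki67 was more frequent in WT either way. The groups below were made without thinning. Cells with Mki67 also held more UMIs, with a median of 12090 against 8613 in WT CD8 T cells.

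Ccne1, Cdkn2c and Cdkn2d were higher in cells with Mki67 in CD8 T cells, NK cells and macrophages of both libraries, the smallest ratio being that of Cdkn2d in Siah2-/- macrophages, 0.29 (0.00 to 0.57). Ccne1 in CD8 T cells was at 41.9 CPM without Mki67 and 74.4 CPM with it in WT, a log2 ratio of 0.83 (0.48 to 1.18), and at 18.4 CPM without Mki67 and 67.5 CPM with it in Siah2-/-, a log2 ratio of 1.87 (1.52 to 2.22). Ccne1 was thus at like levels in the libraries in cells with Mki67, and lower in Siah2-/- in cells without it. Cells with Mki67 were a smaller share of Siah2-/- than of WT CD8 T cells, as given above. The part of that share in the Ccne1 level of the class was not tested. In macrophages Ccne1 had log2 ratios of 2.39 (2.04 to 2.74) in WT and 3.03 (2.47 to 3.59) in Siah2-/-, and Ccne2 had 2.87 (2.27 to 3.48) and 3.87 (3.05 to 4.72).

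Cdkn2c in macrophages was at 6.17 CPM without Mki67 and 49.8 CPM with it in WT and at 4.34 CPM without Mki67 and 42.1 CPM with it in Siah2-/-, log2 ratios of 3.01 (2.67 to 3.36) and 3.28 (2.80 to 3.75). In CD45-negative cells the same inhibitor went the other way, at 280.3 CPM without Mki67 and 90.4 CPM with it in WT (log2 ratio -1.63 (-1.81 to -1.46)) and at 281 CPM without Mki67 and 103 CPM with it in Siah2-/-, where 6 cells held Mki67. Cells with 2 UMIs or more of 6 other cycle genes gave 0.26 for the Siah2-/- ratio, the opposite direction. Ccnd1 in WT CD45-negative cells was at 340.5 CPM without Mki67 and 696 CPM with it, whereas Ccnd2 and Ccnd3 there were lower in cells with Mki67, with log2 ratios of -0.74 (-0.94 to -0.54) and -0.69 (-0.88 to -0.50).

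Cdkn2d in CD8 T cells was at 60.7 CPM without Mki67 and 206 CPM with it in WT and at 102 CPM without Mki67 and 201 CPM with it in Siah2-/-, a like level with Mki67 and a higher one without it in Siah2-/-. Ccnd2 was lower in CD8 T cells with Mki67 by nearly the same ratio in both libraries, -1.12 (-1.32 to -0.93) and -1.13 (-1.30 to -0.97). NK cells and Tregs had Ccnd2 ratios of -0.76 (-1.09 to -0.45) and -0.93 (-1.33 to -0.55), and of -0.66 (-0.94 to -0.38) and -1.21 (-1.57 to -0.87). Ccnd3 did not differ beyond counting error in CD8 T cells, with -0.07 (-0.23 to 0.09) and -0.08 (-0.22 to 0.06). Cdkn1b was lower in Siah2-/- CD8 T cells with Mki67, -1.10 (-1.57 to -0.65), and within counting error in WT, -0.34 (-0.88 to 0.20); the difference between the libraries was not tested. Cdkn1a in macrophages was at 392 CPM without Mki67 and 273 CPM with it in WT and at 696 CPM without Mki67 and 348 CPM with it in Siah2-/-, lower with Mki67 in both. In CD8 T cells Cdkn1a had ratios of -0.06 (-0.64 to 0.52) in WT and 0.77 (0.48 to 1.05) in Siah2-/-.

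Of members with at least 20 UMIs, 4 of 10 were at least 1.5-fold higher and 2 at least 1.5-fold lower in WT CD8 T cells with Mki67, against 12.7% and 10.3% of all genes measured so. In Siah2-/- CD8 T cells they were 6 and 2 of 10, against 15.8% and 13.3%. In WT macrophages they were 5 and 0 of 10, against 13.4% and 8.20%, and in Siah2-/- macrophages 3 and 1 of 9, against 16.8% and 12.9%. The higher members in all 4 sets included Ccne1, Ccne2 and Cdkn2c.

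**Figure D3:**
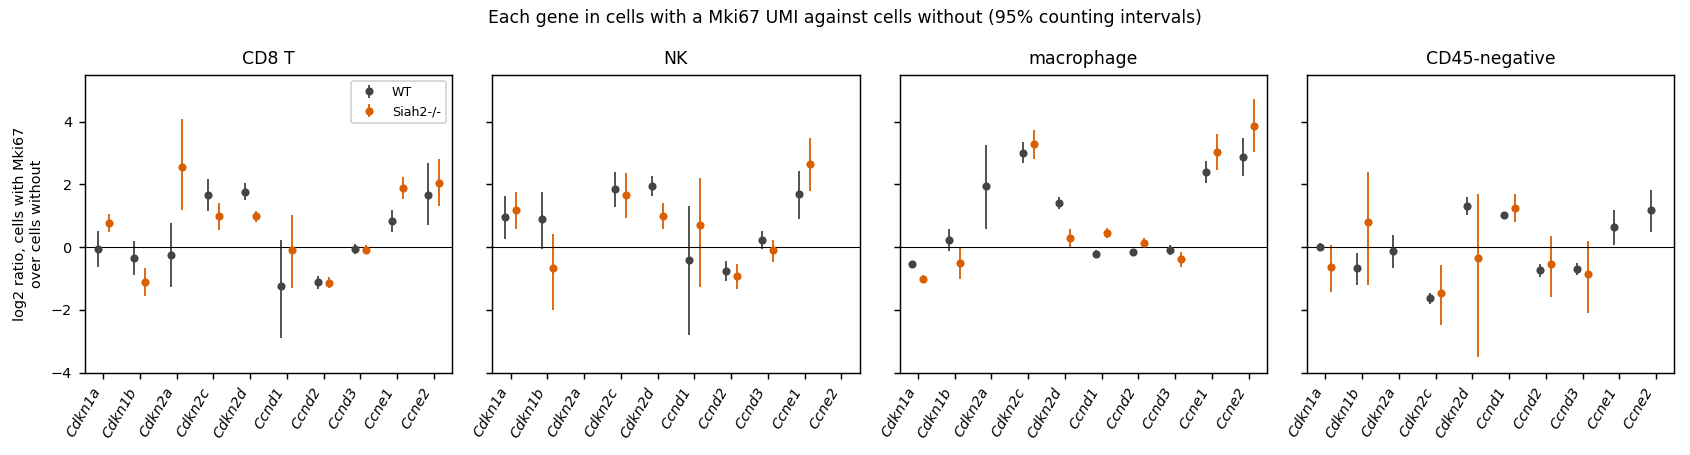
Log2 ratio (y axis) of each gene in cells with a Mki67 UMI over cells without, in 4 classes, WT in grey and Siah2-/- in orange, with 95% counting intervals. Ccne1, Ccne2 and Cdkn2c lie above 0 in CD8 T cells and macrophages, while Cdkn2c lies below 0 and Ccnd1 above 0 in CD45-negative cells.

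Between the libraries, member ratios were read against all genes of the same class with at least 20 UMIs. Macrophages had 1 member at least 1.5-fold higher in Siah2-/- and 5 at least 1.5-fold lower of 10, where 10.7% and 9.15% of all genes were. CD8 T cells had 1 and 3 of 10 (12.0% and 8.82% of all genes), and NK cells 1 and 1 of 9 (12.7% and 5.53%). Tregs had 1 and 2 of 8 (12.3% and 13.8%), CD4 T cells 1 and 3 of 7 (24.7% and 18.7%), DC 1 and 1 of 6 (18.4% and 18.3%) and CD45-negative cells 0 and 3 of 10 (12.0% and 18.9%). Over all classes 6 were higher and 18 lower of 60. With all barcodes of at least 1000 UMIs the lower ones numbered 10, and with cells weighted equally the higher ones numbered 10. The median log2 ratio over measured members was -0.62 in macrophages and -0.08 in CD8 T cells, where the median of all genes was -0.04 and -0.03.

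**Figure D4:**
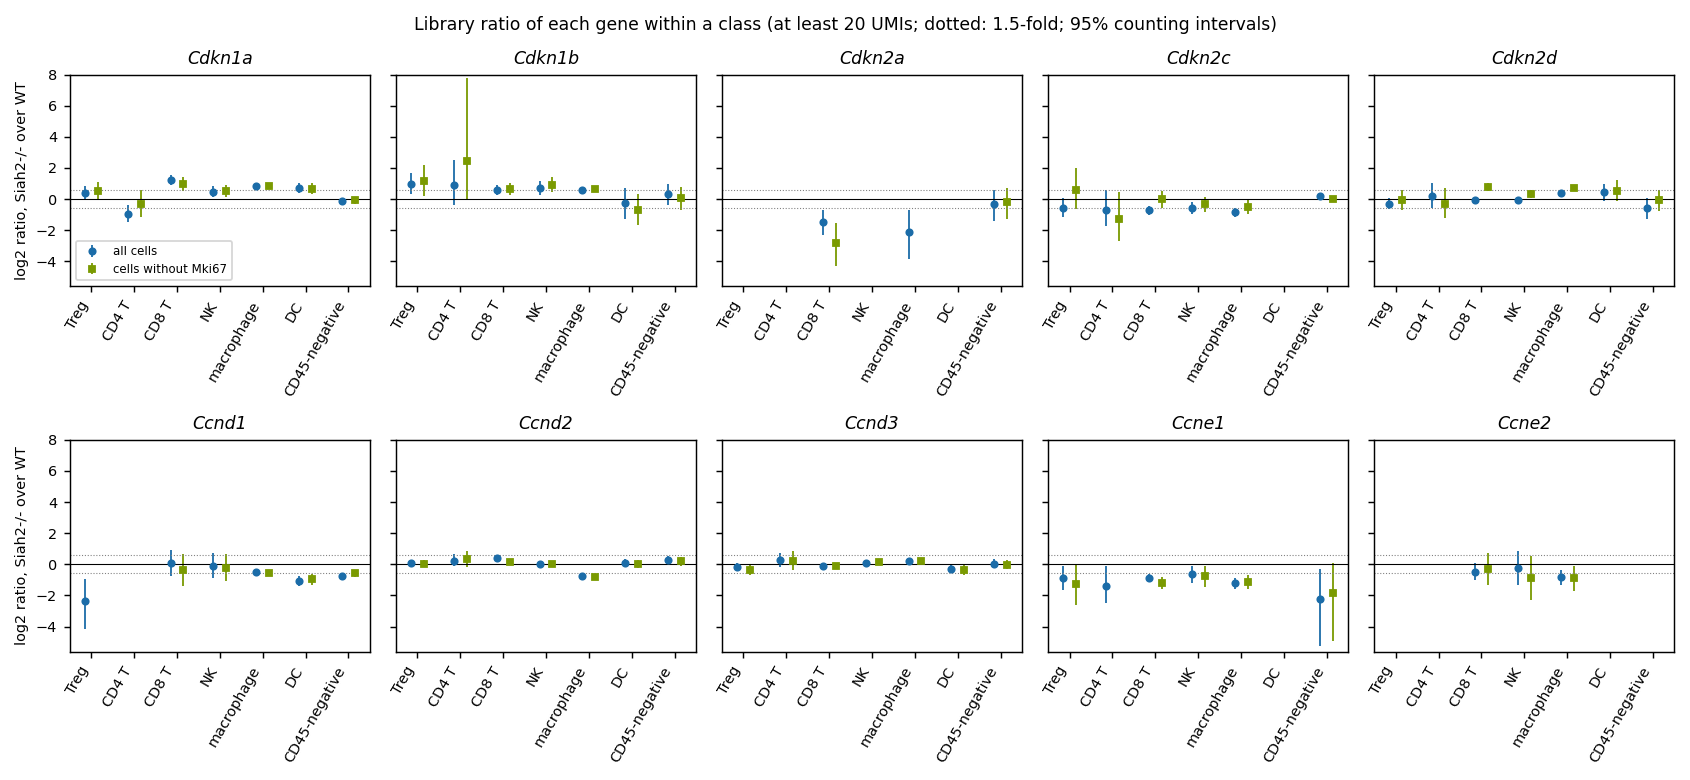
Log2 ratio of Siah2-/- over WT (y axis) for each gene with at least 20 UMIs in 7 classes, for all cells (circles) and cells without Mki67 (squares), with 95% counting intervals and dotted lines at 1.5-fold. All 6 Ccne1 values of all cells lie below 0, and the Cdkn1b values of Tregs, CD8 T, NK and macrophage cells lie above 0.

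Ccne1 was the member with the most regular direction: it was lower in the Siah2-/- library, by at least 1.5-fold, in all 6 classes in which it was measured. The log2 ratio was -0.85 (-1.09 to -0.61) in CD8 T cells (298 and 287 UMIs), -1.23 (-1.55 to -0.91) in macrophages (281 and 114 UMIs), -0.64 (-1.17 to -0.11) in NK cells and -0.86 (-1.62 to -0.12) in Tregs. With all barcodes of at least 1000 UMIs the CD8 T cell value was -0.58, just under 1.5-fold. In cells without Mki67 it was -1.18 (-1.57 to -0.79) in CD8 T cells and -1.14 (-1.59 to -0.70) in macrophages, and in CD8 T cells with Mki67 it was -0.14 (-0.45 to 0.17). After each cell had been thinned to 4000 UMIs, 20.1% of WT and 8.44% of Siah2-/- CD8 T cells held a Ccne1 UMI, and without thinning 38.1% and 18.0% did. Ccne2 was lower in macrophages, -0.83 (-1.33 to -0.34), and had 81 UMIs in WT and 0 in Siah2-/- CD45-negative cells, at least 2.07-fold lower against a floor of 3 counts.

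Cdkn1b was higher in the Siah2-/- library in lymphocytes and macrophages. In Tregs it had 28 UMIs (33.3 CPM) in WT and 62 UMIs (65.6 CPM) in Siah2-/-, a log2 ratio of 0.98 (0.31 to 1.68). NK cells had 0.72 (0.28 to 1.17), CD8 T cells 0.58 (0.27 to 0.89) and macrophages 0.56 (0.38 to 0.73), and past 1.5-fold lay Tregs, NK cells and CD4 T cells, the last with 5 WT UMIs and an interval that spans 0. DC, -0.28 (-1.29 to 0.71), and CD45-negative cells, 0.32 (-0.38 to 0.96), were within counting error. In cells without Mki67 the ratios were 1.14 (0.20 to 2.19) in Tregs, 0.93 (0.44 to 1.43) in NK cells, 0.65 (0.27 to 1.06) in CD8 T cells and 0.63 (0.44 to 0.83) in macrophages. In cells with Mki67 none of the 7 classes had a ratio beyond counting error.

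The Treg value rested on few UMIs and on which barcodes counted as cells: with all barcodes of at least 1000 UMIs it was 0.12. Markers of NK cells moved with it: the 5 markers summed to 175 CPM in WT and 1967 CPM in Siah2-/- Tregs, with none at 0, chiefly through Gzma, at 115 and 1762 CPM, while Klre1 was at 33.3 and 79.3 CPM and Eomes at 7.13 and 12.7 CPM. Without cells holding Cd8a or Cd8b1 the Treg ratio was 0.55, under 1.5-fold. Their part in the result was not tested. At 4000 UMIs per cell, 10.4% of WT and 20.0% of Siah2-/- Tregs held a Cdkn1b UMI, and 6.20% and 13.1% of NK cells did. Without thinning the shares were 28.6% and 41.0% of Tregs and 16.1% and 21.8% of NK cells, at medians of 9200 and 7811.5 UMIs per NK cell. In the same thinned cells, Ccnd1, whose level in CD8 T cells is that of free RNA, was seen in 2.60% of WT and 1.73% of Siah2-/- CD8 T cells, at medians of 9497 and 8042 UMIs.

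Cdkn1a was higher in Siah2-/- macrophages, 0.84 (0.80 to 0.88), DC, 0.73 (0.42 to 1.06), CD8 T cells, 1.23 (0.92 to 1.55), and NK cells, 0.48 (0.13 to 0.84). CD4 T cells had the opposite direction, -0.95 (-1.49 to -0.37), on 18 WT cells. Without the 2 WT and 7 Siah2-/- cells that held 2 or more UMIs of the DC markers it was -0.88, and with all barcodes of at least 1000 UMIs the CD4 T cell value was 0.60. The CD8 T cell and NK cell values depended on keeping leukocyte barcodes with CD45-negative markers apart: without that limit they were 0.19 and -0.052. Leaving out the 5 WT and 9 Siah2-/- NK cells with DC markers gave 0.94 for NK cells. In CD8 T cells with Mki67 the ratio was 1.77 (1.32 to 2.25) and in those without 0.94 (0.52 to 1.39). Immediate early and heat shock genes, which respond to tissue dissociation as well as to stimulation, were higher in sum in Siah2-/- in all 7 classes, so that 10 of them (Fos, Fosb, Jun, Junb, Egr1, Ier2, Dusp1, Atf3, Hspa1a, Hspa1b) summed to 1022 and 2316 CPM in CD8 T cells and 3788 and 6880.5 CPM in macrophages. The part of such a response in the Cdkn1a and Cdkn1b values was not tested. The percentage of mitochondrial UMIs was 1.64% and 1.54% in CD8 T cells.

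Ink4 inhibitors showed no common direction. Cdkn2c was lower in Siah2-/- macrophages, -0.84 (-1.13 to -0.55), and CD8 T cells, -0.73 (-1.03 to -0.42), but in CD8 T cells without Mki67 it was -0.02 (-0.55 to 0.52). Cdkn2d went from -0.04 (-0.18 to 0.10) in all CD8 T cells to 0.74 (0.49 to 1.01) in those without Mki67, and from 0.42 (0.29 to 0.54) to 0.74 (0.59 to 0.89) in macrophages. Cdkn2c was at 53.0 CPM in WT and 32.8 CPM in Siah2-/- CD8 T cells with Mki67. In macrophages without Mki67 it was at 6.17 and 4.34 CPM. In CD8 T cells and macrophages both inhibitors were higher in cells with Mki67, and these were less frequent in Siah2-/-. The part of this in the ratios was not tested. Cdkn2a in CD8 T cells had 37 UMIs in WT and 23 in Siah2-/-, -1.48 (-2.30 to -0.69).

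Ccnd2 was lower in Siah2-/- macrophages, -0.77 (-0.82 to -0.71), and this was seen in cells without Mki67, -0.80 (-0.86 to -0.74), and with it, -0.52 (-0.69 to -0.35). At 4000 UMIs per cell, 65.1% of WT and 39.0% of Siah2-/- macrophages held a Ccnd2 UMI, and 84.5% and 56.5% did without thinning. In all CD8 T cells Ccnd2 was higher, 0.38 (0.27 to 0.49), which turned to -0.0074 with all barcodes of at least 1000 UMIs. In CD8 T cells without Mki67 it was less so, 0.16 (0.04 to 0.29), which turned to -0.10 in cells with no UMI of 7 cycle genes. Ccnd1 was lower in macrophages, -0.47 (-0.54 to -0.41), DC, -1.07 (-1.41 to -0.74), and CD45-negative cells, -0.72 (-0.91 to -0.54); in Tregs 23 WT and 5 Siah2-/- UMIs were counted, of which free RNA could account for 16.1% and 80.1%. Ccnd3 stayed within 1.5-fold in all 7 classes.

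The 4 macrophage states described here were not equally frequent, with 841 WT and 658 Siah2-/- cells Mgl2 and MHC class II, 415 and 107 resident-like, 391 and 325 interferon-induced and 213 and 459 monocyte-like, and 1022 of the 4082 macrophages lay near a boundary between states. Cdkn1a was nevertheless higher in Siah2-/- within each of these 4 states, from 0.43 (0.34 to 0.51) in interferon-induced to 0.68 (0.62 to 0.75) in Mgl2 and MHC class II cells. Its Siah2-/- levels were 765 CPM in monocyte-like and 329 CPM in resident-like cells, against 506 and 224 CPM in WT. Ccnd2 was lower within each of the 4, most in monocyte-like cells with 231 CPM in WT and 70.8 CPM in Siah2-/-, -1.71 (-1.95 to -1.47). The smallest Ccnd2 difference was that of Mgl2 and MHC class II cells, -0.38 (-0.46 to -0.30). Ccnd1 ran from -1.18 (-1.46 to -0.91) in monocyte-like to -0.06 (-0.27 to 0.15) in resident-like cells. Cdkn1b was beyond counting error in Mgl2 and MHC class II cells, 0.64 (0.35 to 0.93), and not in the other 3.

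Ccne1 in resident-like cells, which held Mki67 in 26.7% of WT and 24.3% of Siah2-/- cells, was 22.8 and 20.2 CPM, within counting error. In WT it was above Mgl2 and MHC class II (10.3 CPM), interferon-induced (9.91 CPM) and monocyte-like cells (1 UMI) beyond counting error. Monocyte-like cells led in Ccnd3, with 162 and 209 CPM, and in Cdkn2d, with 76.4 and 141 CPM.

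**Figure D5:**
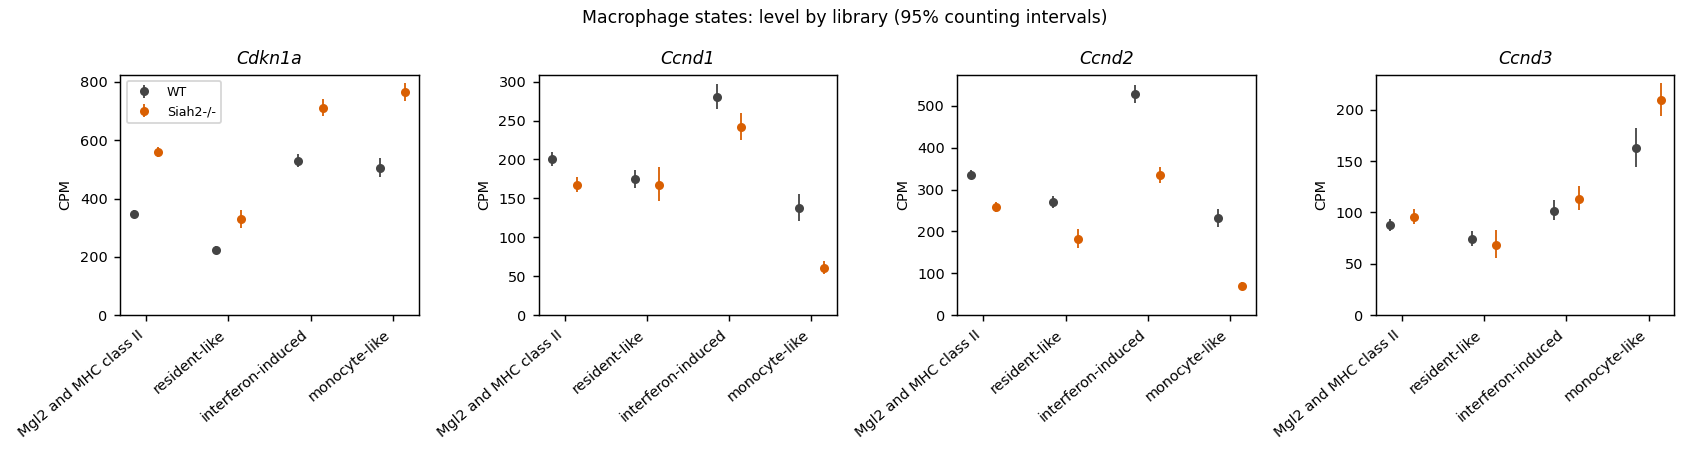
Level (y axis, CPM, starting at 0) of Cdkn1a and the D cyclins in 4 macrophage states, WT in grey and Siah2-/- in orange, with 95% counting intervals. Cdkn1a is higher and Ccnd2 lower in Siah2-/- in each state, and Ccnd3 is highest in monocyte-like cells.

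DC were divided by Ccr7, a receptor of mature DC. Ccr7-positive cells held more Ccnd2, 521 and 614 CPM against 353 and 210.2 CPM, and less Ccnd1, 164 and 37.1 CPM against 381 and 281 CPM. Siah2-/- DC were Ccr7-positive in 38 of 75 cells and WT DC in 13 of 54. Within Ccr7-negative DC the Ccnd1 ratio was -0.44 (-0.80 to -0.08) and the Ccnd2 ratio -0.75 (-1.16 to -0.35).

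CD45-negative cells numbered 45 in Siah2-/-, so that their ratios rest on few cells. Ccnd1 was lower in Hmga2-positive cells, with 468 CPM in 431 WT and 222 CPM in 32 Siah2-/- cells, -1.07 (-1.30 to -0.85). In the Hmga2-negative ones it had the opposite direction, with 159 CPM in 76 WT and 445 CPM in 13 Siah2-/- cells, 1.48 (1.09 to 1.86). Of the 78 Siah2-/- UMIs, 48 came from 3 cells with Mki67, and without Mki67 the levels were 158 and 228 CPM, 0.53 (-0.08 to 1.08). Cdkn2c was present in both, at 211 and 384 CPM in WT. Ccne1 and Ccne2 had 0 UMIs in Hmga2-negative WT cells, which allows up to 2.20 CPM.

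Other genes of the G1 to S step were taken from a list of 51 names. The list also held genes of later cycle phases, of stress and of signalling, such as Ccnb1, Cdk1, Gadd45b and Stat5b. At least 1.5-fold, the Siah2-/- library had 8 higher and 20 lower of 49 in CD8 T cells, 7 higher and 16 lower of 39 in Tregs, 8 higher and 10 lower of 44 in NK cells and 6 higher and 17 lower of 49 in macrophages, with medians of -0.43, -0.31, -0.04 and -0.16. CD4 T cells had 6 higher and 14 lower of 34, DC 8 higher and 9 lower of 28 and CD45-negative cells 6 higher and 25 lower of 48. The shares of all genes past that fold, given above, ran from 10.7% to 24.7% higher and 5.53% to 18.9% lower. The higher counts lay nearest to their class's share in CD45-negative cells (12.0%) and also near it in macrophages (10.7%), and below it in CD4 T cells (24.7%). Within CD8 T cells the lowest ratio with at least 100 UMIs was that of E2f8, a repressor of the E2F family. Its levels were 14.3 and 3.60 CPM in the order WT and Siah2-/-. Within Tregs the lowest such ratio was that of Mcm5, a part of the replicative helicase, at 158 and 56.1 CPM. Tk1, for thymidine salvage, was at 153 and 66.1 CPM in CD8 T cells and 55.8 and 19.5 CPM in macrophages. Ccna2, the S phase cyclin, was at 175 and 74.0 CPM in Tregs and 152 and 67.2 CPM in CD8 T cells.

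Among the genes of the list that were higher in Siah2-/-, Klf2, a factor of quiescent T cells, was at 16.8 and 105 CPM in CD8 T cells, 17.4 and 112 CPM in NK cells and 42.8 and 138 CPM in Tregs, but at 152 and 95.3 CPM in the CD4 T cells. Klf2 was also higher in macrophages (54.7 and 141 CPM), DC (70.2 and 224 CPM) and CD45-negative cells (47.2 and 140 CPM), so its rise was not particular to lymphocytes. Btg1, an anti-proliferative gene, was at 299 and 692 CPM in CD8 T cells and 215 and 518 CPM in Tregs, and Btg2 at 199 and 453 CPM and 102 and 295 CPM. In DC Btg1 was at 340 and 768 CPM. Gadd45b, a stress gene, was at 11.3 and 38.8 CPM in NK cells. Immediate early genes moved in the same direction in these classes, with 8 of the 9 that had at least 20 UMIs at least 1.5-fold higher in NK cells and 6 of 8 in Tregs (all genes 12.7% and 12.3%), and their part in the list's values was not tested. Cks1b, a cofactor of Cdks and of the ligase that degrades p27Kip1, was lower, at 219 and 66.4 CPM in CD4 T cells and 203 and 66.9 CPM in DC. Cdk4, a partner of the D cyclins, was lower, at 165 and 90.6 CPM in CD4 T cells and 172 and 72.6 CPM in DC. Mki67 was held by 7 of 18 WT and 19 of 251 Siah2-/- CD4 T cells, and by 11 of 54 and 1 of 75 DC. The part of these few cells in the Cks1b and Cdk4 values was not tested.

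Over 22 sums of at least 20 cells, each a class or state in a library, the genes whose log2 level ran most nearly with Cdkn1a by Pearson's r were Npc2 (0.971), Ccdc109b (0.963) and Ifitm3 (0.949). Those for Cdkn1b were Hif1a (0.860), Ccndbp1 (0.855) and 2310001H17Rik (0.819). Cdkn2c had Aamdc (0.968), Cbx6 (0.964) and Tmem9 (0.954), and Cdkn2d had Add3 (0.941), Prr13 (0.887) and Cd47 (0.878). Among the D cyclins, Ccnd1 had Ift22 (0.928), Anxa4 (0.922) and Gsn (0.918), Ccnd2 had Dennd1b (0.782), Cnp (0.777) and Pex16 (0.718), and Ccnd3 had Cnn2 (0.929), Tmsb10 (0.888) and Tmc6 (0.884). These correlations are descriptions, since the sums share 2 libraries, and Cdkn2a, Ccne1 and Ccne2 lay under the mean of 20 CPM that was asked for.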

How the data were processed

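Libraries were made with the 10x Genomics 3′ v2 chemistry, 1 from WT and 1 from Siah2-/- tumors. The authors processed reads with bcl2fastq and Cell Ranger on mm10 (GRCm38), per the labels; versions are not given in the sources used here. Deposited files held UMI counts per gene and barcode, a table of raw counts, and a table of values the authors gave as the natural log of scaled counts, which served only to name the cells. Member rows of the raw table equalled the matrices in all cells. No column was left out.

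Python 3.11.15, numpy 2.4.6, scipy 1.17.1, pandas 2.3.3 and matplotlib 3.10.9 were used. Classes were gated on at least 2 UMIs of their markers and at most 1 of other lineages; leukocytes held at most 2 UMIs of CD45-negative markers, and this limit and the DC and CD45-negative gates were set after the data had been seen. 1 macrophage state is not reported here. Gates can hold doublets, which were not called. UMI counts were summed per class and library. Intervals are exact: Poisson for CPM, and conditional binomial (Clopper-Pearson) for ratios and shares. A gene was past the fold at 1.5-fold with at least 20 UMIs over both libraries. The ratio and its interval were tested on simulated Poisson counts without spread between cells or libraries, so that test covers counting error only. All 10 members are named in every class where results turn on them; list genes named are among the 4 of largest ratio in each direction and class with at least 100 UMIs, and not all of those are given. Alike genes were ranked by Pearson correlation of log2(CPM + 10). Alternatives changed barcodes, gates, denominators, cycling definitions and thinning. The members and lists were chosen with earlier results of these data known, and the immediate early list after the values of the pathway list had been seen.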

Additional observations from a re-analysis of the deposited data

Results flagged for a closer look

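Members whose ratio lay beyond counting error in opposite directions in different cell classes were Cdkn1a, Ccnd2 and Ccnd3. The difference between the classes was not tested in any of them, since each genotype has 1 library. Cdkn1a had log2 ratios of Siah2-/- over WT of 1.23 in CD8 T cells and -0.95 in CD4 T cells, the latter on 18 WT cells. Ccnd2 had 0.38 in CD8 T cells and -0.77 in macrophages. Ccnd3 had 0.20 in macrophages and -0.11 in CD8 T cells, both within 1.5-fold.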

How the results depend on the processing

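Each genotype is 1 library, so no interval covers the spread between mice, and few cells stood behind WT CD4 T and Siah2-/- CD45-negative values. Values below are log2 ratios of Siah2-/- over WT unless named otherwise, and those given are a part of the values that moved. Values outside the counting interval, beside those that turned direction, numbered 15 with all barcodes of at least 1000 UMIs (44 stayed inside), 10 with cells weighted equally (51), 9 under stricter gates (49), 8 without the limit on CD45-negative markers (52), 6 with the same lowest UMI count (55), 3 in Tregs without Cd8-positive cells (5), 6 with no UMI of 7 cycle genes (42), 15 with 2 Mki67 UMIs (79) and 17 by 6 other cycle genes (88); a count of members counts as moved past 1.5 times. With all barcodes of at least 1000 UMIs, directions turned for Cdkn1a in CD4 T cells (0.60) and Ccnd2 in CD8 T cells (-0.0074), and the values that moved outside their counting interval included Cdkn1b in Tregs (0.12), Ccne1 in CD8 T cells (-0.58, under 1.5-fold), and Cdkn1a and Ccnd2 in macrophages (0.71 and -0.69); members at least 1.5-fold lower numbered 10, against 18 of 60 as reported. With the same lowest UMI count in both libraries, macrophage Cdkn1a and Ccnd2 were 0.76 and -0.67. Macrophage Cdkn1a was 0.91 under stricter gates and 0.88 after centring. Weighting cells equally gave -1.21 for Ccne1 in CD8 T cells, 0.88 and -0.89 for macrophage Cdkn1a and Ccnd2, and 10 higher members against 6. Without the limit on CD45-negative markers, chosen after seeing the data, Cdkn1a was 0.19 in CD8 T cells, it turned in NK cells (-0.052), and macrophage Ccnd2 was -0.61. Subtracting free RNA, also added later, moved Ccnd1 in Tregs alone, leaving out lymphoid cells with DC markers, also added later, moved Cdkn1a in NK cells alone (0.94), and leaving Cd8-positive cells out of the Tregs, likewise added later, gave 0.55 for Cdkn1b.

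With no UMI of 7 cycle genes, Ccnd2 in resting CD8 T cells turned (-0.10). For cycling over resting cells, 2 Mki67 UMIs gave -1.56 and -1.44 for Ccnd2 and 1.16 (Siah2-/-) for Cdkn2d in CD8 T cells, 3.53 and 4.01 for Cdkn2c, 1.87 and 1.04 for Cdkn2d and 3.60 (Siah2-/-) for Ccne1 in macrophages. By 6 other cycle genes the values were 0.69 and -1.32 for Siah2-/- CD8 T Cdkn2d and Ccnd2 and 1.01 for WT macrophage Cdkn2d, and the ratio turned for Cdkn1a in 18 WT CD4 T cells (-1.89) and Cdkn2c in Siah2-/- CD45-negative cells (0.26). Differences in percentage points of cells with a UMI at 2000 UMIs were 2.40 for Cdkn1b in NK cells, -7.47 for Ccne1 in CD8 T cells (-20.1 unthinned) and -18.3 for Ccnd2 in macrophages. The cause of these changes was not tested. No paired analysis was possible because each genotype has 1 library and the labels give no replicate numbers.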
